A study of Mus musculus with 3 samples.

Results

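The genes described here encode the subunits of the 5 complexes of oxidative phosphorylation, with the assembly factors and isoforms that carry the same name stems. They were chosen by symbol alone: names beginning with Nduf, Uqcr or Atp5, names beginning with Cox4 to Cox8, the names Sdha to Sdhd, and the mitochondrially encoded Nd, Co, Cytb and Atp genes, without names of copies (those holding -ps or beginning with Gm). The rule took 113 of the 56691 lines of the deposited table, 100 of them nuclear genes and 13 mitochondrially encoded. Of these, 104 had an FPKM of 1 or more in 1 or more libraries and were compared, 91 nuclear and all 13 mitochondrial. FPKM is a fragment count scaled to exonic length and library size, so a ranking of genes by FPKM also depends on the exonic length given for each.

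Expression was measured by RNA sequencing in organoids, epithelial cultures that grow as small hollow bodies, from the gastric corpus of mice of about 8 weeks. There was 1 library per group, each with P5 in its title and each from organoids kept in Matrigel and proliferating medium. The Mist1- and the Mist1+ library are labelled wild type, and the third, Gpx4 KO-Mist1+, is labelled as a knockout of Gpx4. The source mice were Mist1Cre/ERT2;RFPLSL and, with floxed Gpx4, Gpx4F/F;Mist1Cre/ERT2;RFPLSL, so an inducible Cre at Mist1 and a red reporter that Cre switches on are alleles named for both. Mist1, also called Bhlha15, is a transcription factor known from the chief cells of the corpus, and Cre activity is tied to cells that express it. How Mist1- and Mist1+ cells were told apart, whether and when tamoxifen was given, and how many mice or cultures stand behind a library are not given in the sources used here.

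The electron transport chain sits in the inner mitochondrial membrane. Complexes I and II take electrons from NADH and succinate, complex III passes them to cytochrome c, complex IV hands them to oxygen, and complex V, the ATP synthase, uses the proton gradient built by complexes I, III and IV to make ATP. Most subunits are nuclear genes whose proteins are imported, while a few hydrophobic core subunits of complexes I, III, IV and V are made inside the organelle from its own genome; in the stomach the pathway is best known from the acid-secreting parietal cell, which is packed with mitochondria.

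The libraries held 14943918 counts (Mist1-), 16187378 (Mist1+) and 16396693 (Gpx4 KO-Mist1+). All 8 gastric epithelial markers passed the filter, with a summed level of 3895, 2985 and 2867 FPKM in that order of libraries, which is kept below. Of 6 parietal markers 3 passed, with summed levels of 408, 826 and 505 FPKM. Nearly all of that sum was Cblif, the gene of intrinsic factor, with 403, 823 and 502 FPKM. In mouse Cblif is also a chief cell gene, so the sum does not measure parietal cells. Ckb, which also passed, had 169, 64 and 98 counts. The proton pump subunit Atp4a had 58, 103 and 83 counts, while its partner Atp4b, and Slc26a7, had 0 in every library. Of 3 chief cell markers 2 passed: Bhlha15, with 282, 580 and 370 counts, and Pgc, while Pga5 had 0. The count of Gpx4 was 4399, 1998 and 2569, so it was higher in the library labelled as the knockout than in Mist1+. A count over the whole gene cannot show the loss of single exons, and which exons are floxed is not given. Because the count goes against the label, that sample is called the library labelled Gpx4 KO-Mist1+ throughout, and every direction drawn from it rests on the label.

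With 1 library per group, no p-value and no spread between replicates can be given. A difference below is a log2 ratio of FPKM plus 1, called when it is at least 2-fold. A fold is the ratio of counts scaled to the library totals, with an exact 95% interval that covers counting error only. In bulk organoids, fewer cells of a type and less RNA per cell cannot be told apart.

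Nuclear subunit genes were lower in Mist1+ than in Mist1- organoids across all 5 complexes. Of the 91 nuclear genes tested, 47 were at least 2-fold lower and 0 at least 2-fold higher. Of all 13351 genes tested, 5.73% were at least 2-fold lower and 7.88% at least 2-fold higher. These shares move with gene length, and the lower shares among genes of like length are given below. The median log2 ratio of the 91 genes was -1.01, with a range from -1.67 to 0.10, and that of all genes tested was 0.15. A ratio below 0 was found for 90 of the 91, and for 5411 of the 13351 genes. With FPKM rescaled to a common sum, which moved the median of all genes to 0.40, it was found for 84, and Ndufs1, Sdha, Uqcrc2, Atp5a1, Atp5b, Ndufaf7 and Ndufb4c lay above 0. The interval of the fold lay wholly below 1 for 87 nuclear genes, above 1 for 1, and held 1 for 3. As a share of all counts, the nuclear genes made up 1.86% of the Mist1- library (interval 1.849 to 1.863), 1.03% of Mist1+ (1.026 to 1.036) and 1.01% of the library labelled Gpx4 KO-Mist1+ (1.007 to 1.016).

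**Figure D1:**
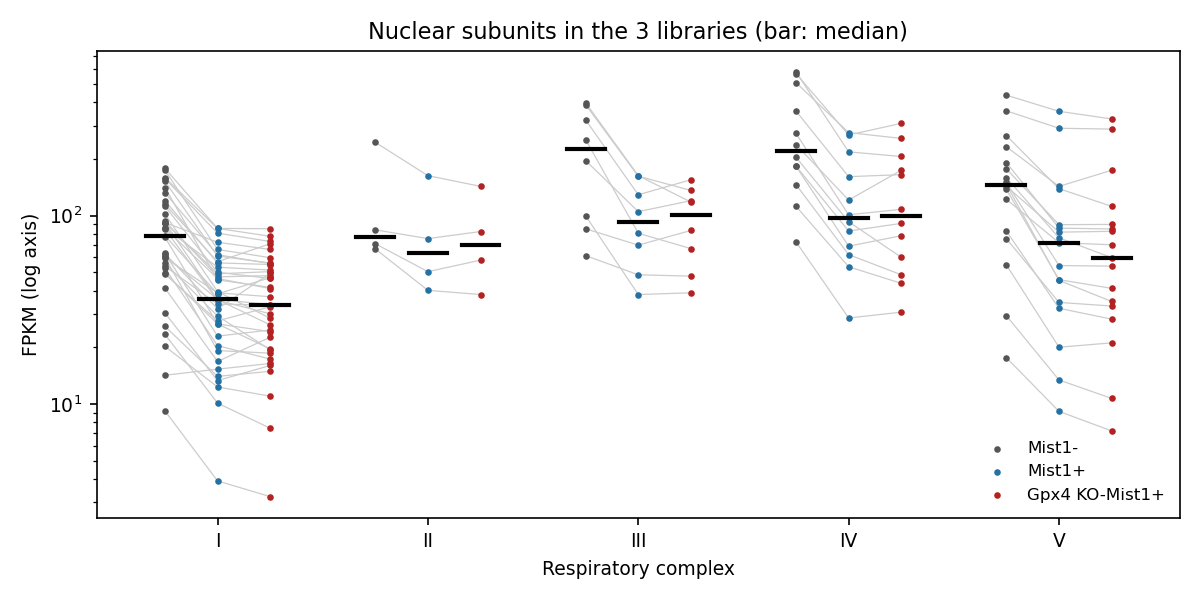
FPKM on a log axis of the 78 tested nuclear subunits, by complex and library; each point is a gene, gray lines join the 3 values of a gene, and the black bar is the median. The medians of complexes I, III, IV and V drop from Mist1- to Mist1+ and lie close together in Mist1+ and the library labelled Gpx4 KO-Mist1+, for example 221, 96.8 and 99.6 FPKM in complex IV.

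The library labelled Gpx4 KO-Mist1+ stood close to Mist1+ for these genes. Against Mist1+, 0 of the 91 nuclear genes were at least 2-fold lower, beside 2.74% of all genes, and 2 were at least 2-fold higher, beside 4.81% of all genes. The median log2 ratio was -0.06, and -0.09 over all genes tested. The scaled counts of 82 of the 91 genes lay within 1.5-fold of each other, which held for 11 in Mist1+ against Mist1-. A ratio below 0 was found for 56 of the 91 and above 0 for 35. Rescaling FPKM to a common sum gave 62 below and 29 above, and median ratio scaling gave 42 below and 49 above, so no common direction is given. Against Mist1-, the library labelled Gpx4 KO-Mist1+ had 47 nuclear genes at least 2-fold lower, beside 8.56% of all genes. At least 2-fold higher were 0, beside 11.6%, and the median was -1.02 (all genes 0.09). Ratios against Mist1- also moved with gene length (below). The 3 comparisons share libraries and are not independent of each other. Mist1- held the highest FPKM of the 3 libraries for 87 of the 91 nuclear genes, the library labelled Gpx4 KO-Mist1+ for 4 and Mist1+ for 0.

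Complex I, the NADH dehydrogenase, has the most subunits, and 20 of its 37 nuclear subunits were lower in Mist1+ by 2-fold or more (median log2 ratio -1.01). Its core subunits, which carry the flavin and the iron-sulfur clusters, were less far apart than the accessory subunits around them. None of the 7 nuclear core subunits reached 2-fold (0 of 7, median -0.75), while 20 of the 30 accessory subunits did (median -1.08); the difference between these groups was not tested. With the trend of the ratio on coding length removed (described below), the medians were -0.53 for the core and -0.51 for 29 accessory subunits, so the gap was not seen there.

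Ndufs1 (chr1:63143596-63176833, minus strand, GRCm38), the largest core subunit and a carrier of iron-sulfur clusters, measured 14.2, 15.3 and 16.4 FPKM. It was the only nuclear gene tested with a log2 ratio above 0 in Mist1+ against Mist1- (0.10, 1.08-fold, interval 1.01 to 1.15). The flavoprotein subunit Ndufv1 measured 59.6, 38.9 and 37.1 FPKM (log2 ratio -0.60) and its partner Ndufv2 91.8, 49.1 and 50.4 FPKM (-0.89). Ndufs3, Ndufs7 and Ndufs8 had ratios of -0.75, -0.80 and -0.87. Apart from Ndufs1, then, each core subunit was highest in Mist1- and less than 2-fold above Mist1+.

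Ndufs6, a small zinc-binding accessory subunit, measured 141, 45.6 and 41.6 FPKM. In Mist1+ it was 3.09-fold lower than in Mist1- (interval 2.83 to 3.38), with the lowest log2 ratio of FPKM plus 1 of the complex, -1.61. Ndufc1, a short membrane subunit, measured 60, 19.2 and 18.6 FPKM (3.12-fold lower, 2.81 to 3.48). Ndufa5, which sits in the peripheral arm, measured 76.6, 26.6 and 19.6 FPKM (2.88-fold lower, 2.58 to 3.22). All 3 genes were high in Mist1- alone. Among accessory subunits the FPKM ran from Ndufb2 with 9.18, 3.9 and 3.22 to Ndufa8, with 178, 85.5 and 77.7, and Ndufa8 too was lower in Mist1+ (log2 ratio -1.05). The FPKM of Ndufb2 is scaled to 5628 exonic bases, of which 315 are coding, and that of Ndufa8 to 861, with 516 coding. The order by FPKM is thus no order of transcript number.

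Between the library labelled Gpx4 KO-Mist1+ and Mist1+ the complex I subunits had a median log2 ratio of -0.11, from -0.57 to 0.61. Ndufa6, an accessory subunit of the LYR family, was at the upper end, with 1691, 934 and 1460 counts (62.8, 32 and 49.4 FPKM; 1.54-fold higher than Mist1+, interval 1.42 to 1.68). Ndufv3 measured 41.2, 16.8 and 22.6 FPKM (log2 ratio 0.41). At the lower end, Ndufa11, a membrane-arm subunit, measured 56, 29.3 and 19.4 FPKM (1.51-fold lower, 1.31 to 1.73). Ndufa3 measured 102, 39.5 and 28.5 FPKM (-0.46). These members of 1 complex thus lay on both sides of Mist1+, all under 2-fold.

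Of the 8 Ndufaf assembly factors of complex I, 2 were lower in Mist1+ by 2-fold or more (median -0.68). With the coding length trend removed their median was -0.47, close to -0.53 for the core and -0.51 for the accessory subunits. The levels of the assembly factors were low, with medians of 12.1, 6.83 and 6.84 FPKM. Ndufaf2 (chr13:108002715-108158623, minus strand), a chaperone of late assembly, had 649, 254 and 106 counts, or 14.6, 5.27 and 2.17 FPKM, so each library was lower than the one before. In the library labelled Gpx4 KO-Mist1+ its log2 ratio was -0.98 against Mist1+, the lowest of all nuclear members and just short of the 2-fold line, with counts 2.43-fold lower (interval 1.93 to 3.07). Against Mist1- it was -2.30. Ndufaf8, the other factor past 2-fold, measured 27.4, 10.4 and 9.14 FPKM, and Ndufaf6 was 6.72, 4 and 6.47 FPKM.

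Complex II, succinate dehydrogenase, is the only complex made wholly of nuclear subunits and also acts in the citrate cycle. None of its 4 subunits reached 2-fold in any comparison (0 of 4), and the median in Mist1+ against Mist1- was -0.54. Sdha, the flavoprotein that oxidises succinate, measured 84, 75.5 and 82.3 FPKM (log2 ratio -0.15). The iron-sulfur subunit Sdhb was the lowest of the 4 by level, with 66.5, 40.1 and 38.1 FPKM (-0.72). The membrane anchors Sdhc and Sdhd measured 70.9, 50.4 and 58 FPKM (-0.49) and 245, 163 and 143 FPKM (-0.59). All 4 were highest in Mist1-, with Sdha nearly level.

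Complex III, the cytochrome bc1 complex, also differed between core and accessory subunits before length was taken into account. All 5 accessory subunits were lower in Mist1+ by 2-fold or more (5 of 5, median -1.32) and none of the 3 core genes held by the symbol rule (0 of 3, median -0.33). With the coding length trend removed both medians were -0.48. The core proteins Uqcrc1 and Uqcrc2 measured 61.3, 48.5 and 47.7 FPKM (-0.33) and 85.1, 69.7 and 83.4 FPKM (-0.28). The Rieske iron-sulfur protein Uqcrfs1 measured 196, 105 and 120 FPKM (-0.89). All 3 core genes were thus highest in Mist1-, but by less than 2-fold. By contrast Uqcr11 (chr10:80402997-80406830, minus strand), a very small subunit, measured 253, 80.6 and 66.8 FPKM (3.14-fold lower in Mist1+, interval 2.9 to 3.4). Uqcrq, which binds next to cytochrome b, measured 99.7, 38.1 and 38.9 FPKM (2.62-fold lower, 2.44 to 2.81). Uqcrh, the hinge protein, measured 322, 129 and 155 FPKM (2.5-fold lower, 2.39 to 2.62). In each of these accessory subunits Mist1- stood alone, with the other libraries close together. Uqcr10, the most abundant nuclear subunit of the complex over the 3 libraries, measured 388, 162 and 136 FPKM, and Uqcrb 397, 163 and 118 FPKM. Uqcrb and Uqcrh marked the ends of the complex in the library labelled Gpx4 KO-Mist1+ against Mist1+, with log2 ratios of -0.47 and 0.27.

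Complex IV, cytochrome c oxidase, had 10 of 12 nuclear subunits lower in Mist1+ by 2-fold or more (median -1.14, range -1.43 to -0.88). With the coding length trend removed 0 of 12 were, and the median of -0.39 was nearer to 0 than those of complexes I, III and V. Its catalytic core is mitochondrially encoded, and the nuclear subunits surround it. Cox7c measured 273, 101 and 108 FPKM (2.71-fold lower, interval 2.57 to 2.86). Cox6b1, which faces the intermembrane space, measured 579, 218 and 206 FPKM (2.65-fold lower, 2.53 to 2.78). Cox7a2 measured 183, 68.8 and 78.2 FPKM (2.66-fold lower, 2.47 to 2.86). The most abundant over the 3 libraries was Cox8a with 568, 268 and 309 FPKM, and the 2 short of 2-fold were Cox6a1 with 508, 276 and 257 FPKM (-0.88) and Cox7a2l with 238, 121 and 174 FPKM (-0.97).

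Against Mist1+, the library labelled Gpx4 KO-Mist1+ held complex IV subunits on both sides of 0 (median 0.06). Cox7a2l, a factor that joins complex III and complex IV in supercomplexes, was the highest among them (log2 ratio 0.52, 1.44-fold higher, interval 1.37 to 1.51). Ndufa4, once assigned to complex I and now counted with complex IV, was the lowest at 204, 92.8 and 60.1 FPKM (1.55-fold lower than Mist1+, 1.44 to 1.66). Cox5b measured 146, 62.1 and 48.5 FPKM and Cox4i1, the regulatory subunit, 359, 161 and 165 FPKM.

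Several complex IV subunits exist as a widespread form and a form known from muscle, testis or hypoxic cells. The widespread forms carried nearly all counts. Cox6a2, Cox7b2, Cox8b, Cox8c and Ndufa4l2 had 0 counts in every library, and Cox4i2, a form known from lung and hypoxia, had 1, 1 and 0. A count of 0 allows up to 3 counts. Only Cox6b2 and Cox7a1 passed the filter, and they were the 2 nuclear genes at least 2-fold higher in the library labelled Gpx4 KO-Mist1+ than in Mist1+. Cox6b2 (chr7:4751792-4753094, minus strand), known from testis, had 76, 32 and 125 counts, or 4.59, 1.78 and 6.88 FPKM (3.86-fold higher than Mist1+, interval 2.6 to 5.88). Cox7a1 (chr7:30184144-30186078, plus strand), known from heart and skeletal muscle, had 12, 3 and 21 counts (6.91-fold higher, 2.06 to 36.2). The 2 of 91 are a smaller share than the 4.81% of all genes, both calls were lost with a pseudocount of 5, and with a filter at FPKM 5 only 1 was left. Both genes were lowest in Mist1+, and Cox6b2 stayed far under the 206 FPKM of Cox6b1 in the same library. The germ cell markers Prm1 and Tnp1 and the muscle markers Des and Myh1 were at 0 in all libraries. Of the 4 germ cell markers 0 passed the filter, with summed levels of 0.53, 0.32 and 1.1 FPKM. Ddx4 of that list, a germ cell RNA helicase, had 12, 13 and 45 counts, 3.42-fold higher than Mist1+ in the third library (interval 1.81 to 6.91), and its part in the Cox6b2 value was not tested. Of the 5 muscle markers 1 did (Actn2), with summed levels of 3.14, 4.8 and 2.33 FPKM.

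Complex V combines the F1 head, which makes ATP, with a membrane ring of c subunits and a stalk that holds the parts together. In Mist1+ against Mist1-, 1 of 5 F1 subunits (median -0.69), 0 of 3 c-ring genes (median -0.88) and 8 of 9 stalk or membrane subunits (median -1.15) were at least 2-fold lower. The catalytic subunits Atp5a1 and Atp5b were the most abundant of all nuclear members in Mist1+, at 436, 358 and 326 FPKM (-0.28) and 360, 291 and 288 FPKM (-0.31). The central shaft Atp5c1 measured 232, 143 and 174 FPKM (-0.69), and its 0.28 was the highest ratio of the complex in the library labelled Gpx4 KO-Mist1+ against Mist1+. Atp5e, the small epsilon subunit of the same head, measured 138, 45.7 and 41.1 FPKM (3.03-fold lower in Mist1+, interval 2.84 to 3.23). The F1 head therefore ran from -0.28 to -1.58 on the log2 scale, and from -0.44 to -0.54 with the coding length trend removed. The medians after that removal were -0.52 for F1, -0.27 for the c-ring and -0.49 for the stalk or membrane subunits, with 0 genes past 2-fold.

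Atp5k (chr5:108433244-108434448, minus strand), the e subunit at the dimer interface, had the lowest log2 ratio of all nuclear members, -1.67. It had 1348, 452 and 353 counts, or 146, 45.3 and 35 FPKM (3.23-fold lower in Mist1+, interval 2.9 to 3.6). Its count was a further 1.3-fold lower than Mist1+ in the library labelled Gpx4 KO-Mist1+ (1.13 to 1.5). Atp5mpl, a small membrane subunit, measured 150, 54.3 and 53.9 FPKM (2.76-fold lower, 2.57 to 2.96), and Atp5j2 82.8, 32.2 and 28.2 FPKM. The c-ring protein is encoded by 3 genes whose mature products are the same: Atp5g3 measured 266, 139 and 112 FPKM, Atp5g2 143, 81.7 and 82.5, and Atp5g1 17.6, 9.13 and 7.19. Their order by FPKM was the same in each library, but it rests on exonic lengths of 2181, 1675 and 4912 bases, beside 423, 438 and 408 coding bases. All 342 of the 100-base stretches in the Atp5g2 transcript with the longest coding sequence also occur in a transcript of another annotated gene. The rest of its 1675 exonic bases was not searched. The genes that share them, Gm10175 and Gm10231, had 56, 28 and 32 and 1, 1 and 0 counts. Part of the Atp5g2 count may thus depend on how the authors' counting placed shared reads. A second line with the symbol Atp5o had 0 counts, while the first measured 159, 76.2 and 59.8 FPKM.

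**Figure D2:**
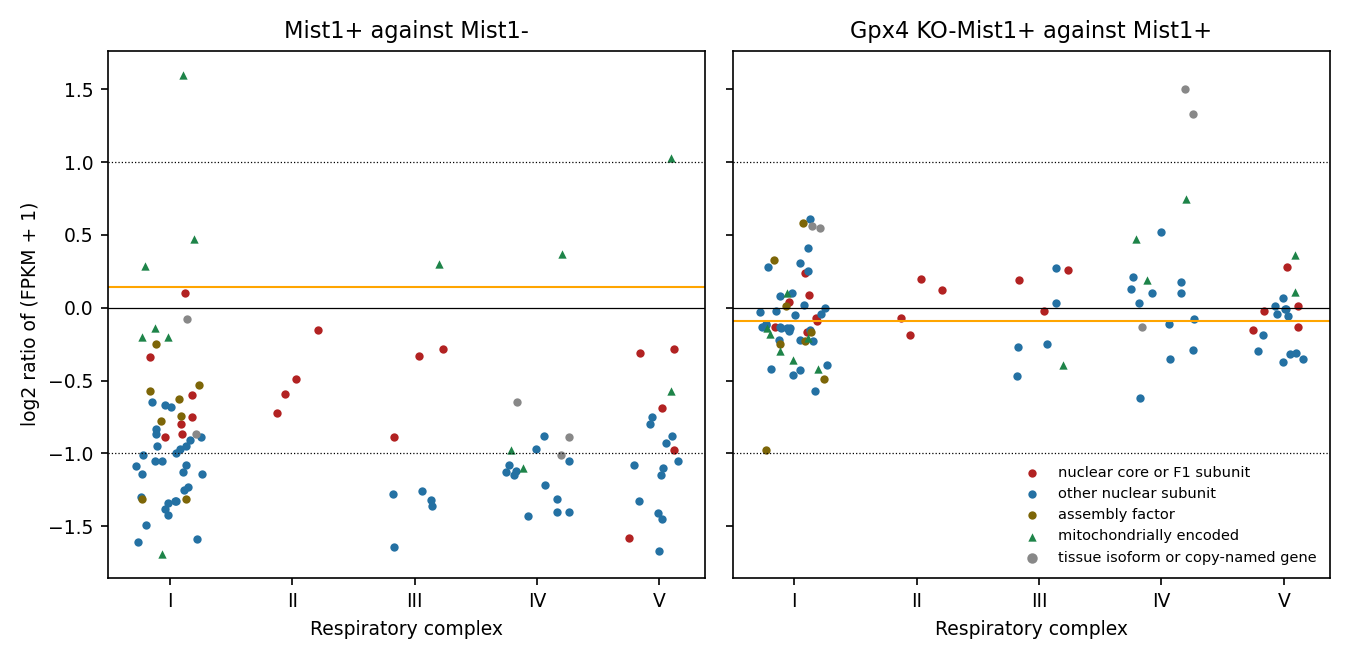
Log2 ratio of FPKM plus 1 for each tested member by complex, in Mist1+ against Mist1- (left) and the library labelled Gpx4 KO-Mist1+ against Mist1+ (right); dotted lines mark 2-fold, the orange line is the median of all genes tested (0.15 and -0.09). On the left the nuclear subunits lie between -1.67 and 0.10, with core and F1 subunits mostly above the others; on the right only Cox6b2 and Cox7a1 lie past 2-fold.

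The ratio of a gene moved with its length in Mist1+ against Mist1-, and the members are short. Across all 13351 genes tested the Spearman rho between exonic length and the log2 ratio was 0.49. Across the 91 nuclear members it was 0.37. Against the length of the coding sequence in GENCODE M21 it was 0.68 over 11051 protein-coding genes and 0.79 over the 87 nuclear members with a value. Genes share their libraries and are no replicates, so these are descriptions. The median coding length was 432 bases in the 87 members and 1374 in the other protein-coding genes. In the library labelled Gpx4 KO-Mist1+ against Mist1+ the same rho was -0.02 for exonic and -0.01 for coding length over all genes. In that library against Mist1- it was 0.39 for exonic and 0.54 for coding length. Read lengths, fragment sizes and RNA integrity values are not given in the sources used here, and the part of such properties in the length trend was not tested.

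Beside genes of like exonic length the nuclear members were lower in each band. Of exonic lengths from 500 to under 1000 bases, 18 members had a median log2 ratio of -1.24 and 733 other genes -0.35. From 1000 to under 2000 bases the medians were -1.07 for 36 members and -0.46 for 1563 others. At 2000 bases or more they were -0.75 for 33 members and 0.25 for 9904 others. In these bands 77.8%, 58.3% and 33.3% of members were at least 2-fold lower, beside 20.1%, 12.7% and 1.37% of the others. Under 500 bases, 4 members stood at -0.76 and 1047 others at 0.00. These 4 were the subunit Ndufa1 and the copy-named genes Cox6c2, Ndufb4c and Ndufs6b, which had few counts, so this band says little about subunits.

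Coding length left a smaller gap. Under 500 coding bases the median was -1.14 for 51 members and -0.63 for 988 others. From 500 to under 1000 it was -0.87 for 23 members and -0.25 for 2568 others. From 1000 to under 2000 it was -0.34 for 12 members and 0.15 for 4195 others. At least 2-fold lower in these coding bands were 76.5%, 26.1% and 8.33% of members, beside 23.9%, 5.18% and 0.81% of the others. By both lengths, the 40 members with exons under 2000 and a coding sequence under 500 bases had a median of -1.23 (535 other genes -0.84), and the 13 with such exons and 500 to under 1000 coding bases had -0.89 (677 other genes -0.55). The gap was wider at exons of 2000 bases or more, where 11 members with a coding sequence under 500 bases had a median of -1.08 (453 other genes -0.39), 10 with 500 to under 1000 had -0.79 (1891 other genes -0.14), and 12 with at least 1000 coding bases had -0.32 (7182 other genes 0.37). Atp5l, whose exons sum to 6443 bases around 309 coding bases, had a ratio of -1.08, while Ndufs1, with 8086 exonic and 2181 coding bases, had 0.10. Within the set, then, the ratio ordered with the coding part of the gene more closely than with its whole exonic length.

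**Figure D3:**
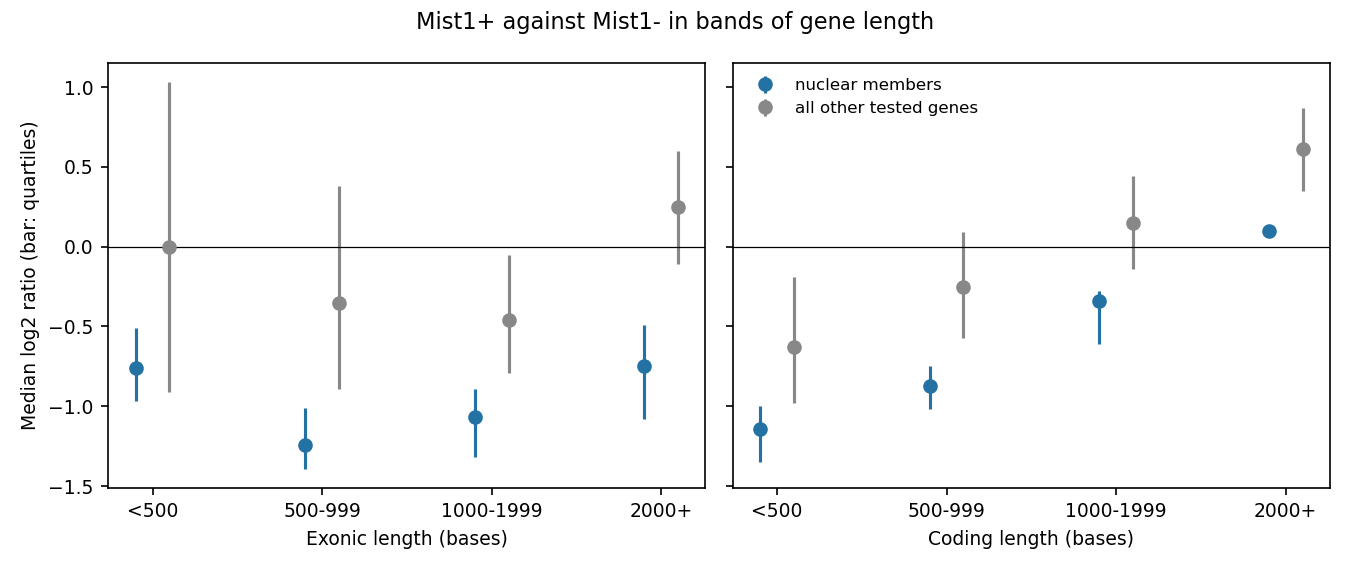
Median log2 ratio in Mist1+ against Mist1- (bars: quartiles) in bands of exonic length (left) and of coding length (right), for nuclear members in blue and all other tested genes in gray. Members lie below the other genes in every band; their medians climb from -1.14 to 0.10 over the coding length bands, the last of which holds Ndufs1 alone.

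With the trend on exonic length removed, the median of the nuclear members was -0.68 with 22 genes at least 2-fold lower. With the trend on coding length removed it was -0.49 with 1 gene at least 2-fold lower, and all 87 members lay below 0. The gene past 2-fold was Ndufv3, an accessory subunit at the flavoprotein end of complex I, whose ratio of -1.25 became -1.38. Ndufs4, a neighbouring accessory subunit, followed with -1.42 before and -0.96 after. The spread between complexes also shrank: medians of -1.01, -0.54, -1.27, -1.14 and -1.05 for complexes I to V became -0.52, -0.29, -0.48, -0.39 and -0.49.

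**Figure D4:**
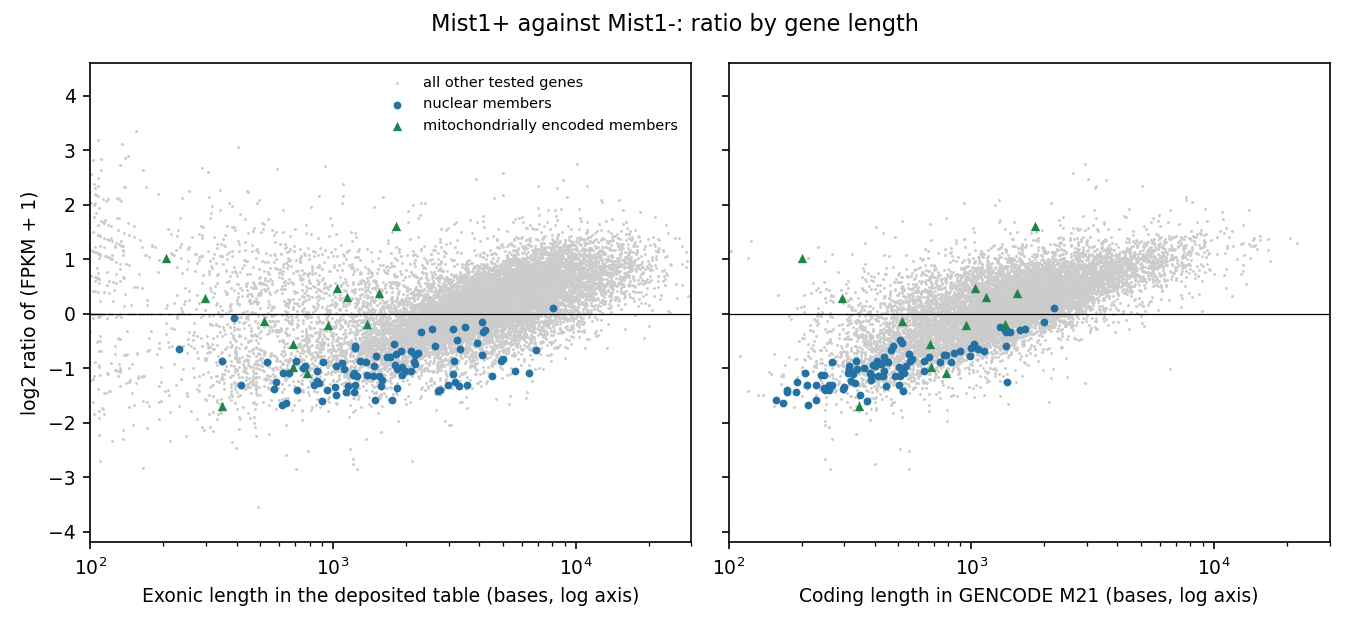
Log2 ratio in Mist1+ against Mist1- by exonic length (left) and by coding length (right), both on a log axis; gray points are all other tested genes, blue points nuclear members, green triangles mitochondrially encoded members. The blue points lie within the lower part of the gray cloud, and for coding length they climb with it (rho 0.79 over 87 members).

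The mitochondrially encoded subunits did not share the direction of the nuclear ones. In Mist1+ against Mist1-, 2 of the 13 were at least 2-fold lower, beside 5.73% of all genes tested, and 2 at least 2-fold higher, beside 7.88%. The lower were mt-Co3 and mt-Nd3, whose counts are uncertain (below), and the higher mt-Nd5 and mt-Atp8, the latter with few counts. The median log2 ratio of the 13 was -0.14 (0.19 with FPKM rescaled to a common sum, where mt-Nd1, mt-Nd4 and mt-Nd6 changed sign). Their share of all counts was 3.36% in Mist1- (interval 3.352 to 3.371), 4.13% in Mist1+ (4.121 to 4.14) and 4.94% for the library labelled Gpx4 KO-Mist1+ (4.926 to 4.947), while the nuclear share was lower in both Mist1+ libraries. Without mt-Co1 it was 1.96%, 2.31% and 1.88%, so mt-Co1 alone set the higher share of the library labelled Gpx4 KO-Mist1+ over Mist1+. The 5 genes with nearly identical copies (below) made up 0.0155%, 0.00801% and 0.0101% of all counts. The intervals of the shares do not cover reads that the counting left out. The 13 genes are transcribed as long polycistronic RNAs from both strands of the mitochondrial genome and are then cut apart.

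mt-Co1, the catalytic subunit of complex IV, had the highest FPKM of the table in each library. It had 209727, 294076 and 501125 counts, or 9084, 11759 and 19782 FPKM, and was 1.68-fold higher in the library labelled Gpx4 KO-Mist1+ than in Mist1+ (interval 1.67 to 1.69). Against Mist1- its log2 ratio in that library was 1.12. None of the other mitochondrial genes above 1000 FPKM in every library was higher there than in Mist1+. The others stayed within a narrower range. mt-Cytb, the electron-carrying core of complex III, measured 5455, 6729 and 5125 FPKM. The complex I subunits mt-Nd1, mt-Nd2 and mt-Nd4 measured 6076, 5285 and 4791 FPKM, 2141, 2969 and 2215 FPKM, and 2278, 1985 and 1544 FPKM. mt-Nd6, encoded on the opposite strand to the rest, measured 1466, 1330 and 1082 FPKM.

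mt-Nd5, a proton-pumping subunit of complex I, stood apart in Mist1-. It had 18651, 61392 and 53574 counts (684, 2079 and 1791 FPKM) and was 3.04-fold higher in Mist1+ than in Mist1- (interval 2.99 to 3.09; log2 ratio 1.60). mt-Nd6, which lies next to it on the other strand and overlaps its end (mt-Nd5 chrM:11742-13565, mt-Nd6 chrM:13552-14070, GRCm38), had a ratio of -0.14. Whether the counting used the strand is not given in the sources used here. mt-Atp8, which helps to anchor the ATP synthase stator, had 3, 10 and 14 counts. It was the other gene past 2-fold higher (log2 ratio 1.03), and its interval for Mist1+ against Mist1- held 1 (3.08-fold, 0.792 to 17.4).

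The 13 genes fell into a high and a low range: 7 stood at or above 684 FPKM in every library, and 6 at or below 120 FPKM in every library. Of the 6 low genes, 5 have a nearly identical annotated copy in a block on chromosome 1 (chr1:24611535-24616197, minus strand, GRCm38). Between 97.6% and 99.9% of the 100-base windows of mt-Co2, mt-Co3, mt-Atp6, mt-Nd3 and mt-Nd4l occur in a transcript of another annotated gene, while the shares were 60.8% for mt-Nd4, 30.8% for mt-Co1, 3.19% for mt-Nd2 and 0% for mt-Nd1, mt-Nd5, mt-Nd6, mt-Cytb and mt-Atp8. Only annotated transcripts were searched. Whether the block also holds a copy of mt-Atp8 between the annotated ones was not tested. The alignments of mt-Atp6, mt-Co2, mt-Co3, mt-Nd4 and mt-Nd4l with their copies held 0 differences. That of mt-Nd3 held 1 over 345 bases and that of mt-Co1 held 6 over 492 bases. The first 300 bases of mt-Nd3 (chrM:9459-9806) and its copy Gm28438 (chr1:24612775-24613119, minus strand), from GENCODE M21 on GRCm38, show how little there is for a read to be told apart by; the capitals mark the 1 differing base, and the copy (345 bases) ends before the gene (348 bases).

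mt-Nd3: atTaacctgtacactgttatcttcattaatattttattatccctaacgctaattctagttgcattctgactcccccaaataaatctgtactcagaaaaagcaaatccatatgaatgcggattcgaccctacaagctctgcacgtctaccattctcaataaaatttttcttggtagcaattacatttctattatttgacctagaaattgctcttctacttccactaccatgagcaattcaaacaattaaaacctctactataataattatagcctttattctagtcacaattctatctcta
Gm28438: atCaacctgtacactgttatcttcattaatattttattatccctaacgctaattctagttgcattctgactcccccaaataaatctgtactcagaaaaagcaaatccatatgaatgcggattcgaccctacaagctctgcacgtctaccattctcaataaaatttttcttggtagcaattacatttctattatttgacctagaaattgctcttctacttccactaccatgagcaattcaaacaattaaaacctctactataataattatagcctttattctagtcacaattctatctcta

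mt-Co2, the copper-binding subunit that receives electrons from cytochrome c, had 1227, 669 and 946 counts (120, 60.4 and 84.3 FPKM). Its copy Gm28661 took 871, 392 and 664 counts, or 41.5%, 36.9% and 41.2% of the pair. mt-Co3 measured 49.2, 22.5 and 25.8 FPKM and was 2.19-fold lower in Mist1+ than in Mist1- (interval 1.9 to 2.54), and its copy took 42.7%, 46.1% and 43% of the pair. mt-Atp6, the proton channel of complex V, measured 42.2, 28.2 and 30.6 FPKM and mt-Nd3 13.1, 3.37 and 3.68 FPKM, with 68, 19 and 21 counts (3.88-fold lower in Mist1+, 2.3 to 6.83). mt-Nd4l had 9, 13 and 11 counts. For mt-Co1 and mt-Nd4, whose copies cover only a stretch, the copy took at most 0.641% of the pair. How the authors' counting treated reads that fit several places was not tested, and the values of the 5 genes are uncertain. Those of mt-Nd4 and mt-Co1 are uncertain too, with 60.8% and 30.8% of windows shared, as reads left out show in neither gene nor copy. Without the 5 genes, 8 were left, among them mt-Atp8, which had few counts and was not searched for unannotated copies. These 8 had a median of 0.34 in Mist1+ against Mist1- and of -0.26 in the library labelled Gpx4 KO-Mist1+ against Mist1+. In the latter comparison 0 of the 13 genes reached 2-fold, beside 2.74% of all genes lower and 4.81% higher. In that library against Mist1-, 3 were at least 2-fold higher (mt-Co1, mt-Nd5, mt-Atp8), beside 11.6% of all genes. At least 2-fold lower was 1 (mt-Nd3), beside 8.56%.

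**Figure D5:**
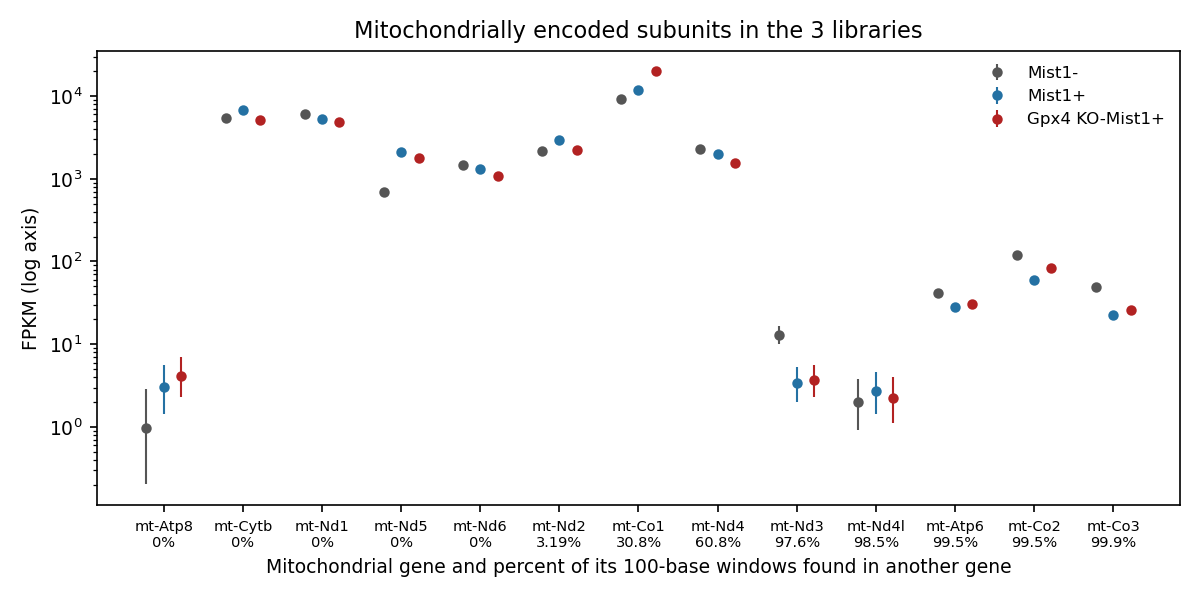
FPKM on a log axis of the 13 mitochondrially encoded subunits in the 3 libraries, with exact Poisson 95% intervals of the counts, ordered by the percent of 100-base windows found in another gene. The 5 genes at 97.6% or more lie at or below 120 FPKM, as does mt-Atp8 at 0%; mt-Co1 climbs from 9084 to 19782 FPKM and mt-Nd5 lies at 684 FPKM in Mist1-.

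Genes that act with the complexes but carry other names were compared in the same way. Of 5 carriers and further subunits, 3 were lower in Mist1+ by 2-fold or more (median -1.09): the electron carrier Cycs (cytochrome c) with 68.4, 31.6 and 24 FPKM, the ATP synthase inhibitor Atpif1 with 154, 61.4 and 70 FPKM, and Romo1 with 82.4, 30.4 and 26.9 FPKM. Cyc1, the catalytic cytochrome c1 of complex III, measured 105, 73.6 and 63.8 FPKM (-0.51). The assembly factors were less far apart before length was taken into account, and no length trend was removed for these lists. Of 32 tested factors for complexes II to V, 2 were at least 2-fold lower (median -0.35), the complex III factors Uqcc2 with 87.9, 32.3 and 28.4 FPKM and Uqcc3 with 50.7, 22.6 and 16.9 FPKM. Of 8 complex I assembly genes outside the Ndufaf names, 0 were (median -0.34). Of 17 genes for mitochondrial DNA, transcription and translation, 1 was (median -0.05), the RNA stability factor Slirp with 13.5, 5.08 and 4.5 FPKM, while its partner Lrpprc measured 7.33, 10.8 and 10.2 FPKM. Polrmt, the mitochondrial RNA polymerase, measured 3.76, 7.13 and 4.26 FPKM. Apart from the carriers, these shares past 2-fold lie near the 5.73% of all genes tested and are no result about the lists.

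Nuclear regulators of these genes had ratios mostly above 0, as did 7848 of the 13351 genes tested. Of 9 tested, 1 was higher in Mist1+ by 2-fold or more and 0 lower (median 0.59), beside 7.88% and 5.73% of all genes, so this count is no result about the list. The gene was Hcfc1, a transcriptional coregulator, with 10.4, 28.3 and 19.2 FPKM. Gabpa, the DNA-binding subunit of NRF2/GABP, measured 8.11, 15.6 and 15.8 FPKM and Nrf1, the nuclear respiratory factor, 2.89, 3.68 and 2.86 FPKM. Ppargc1a, the PGC-1 alpha coactivator of mitochondrial biogenesis, had 90, 201 and 781 counts (0.91, 1.88 and 7.23 FPKM). In the library labelled Gpx4 KO-Mist1+ it was 3.84-fold higher than in Mist1+ (interval 3.28 to 4.5), where the nuclear subunits had a median of -0.06.

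RefSeq promoters (GRCm38.p6, 250 bases before to 50 after a start) were found for 75 of the 91 tested nuclear members. The NRF1 motif GCATGCGC, searched on both strands, occurred in 12 of 75 (16%), in 6.07% of 9173 other tested genes and in 3.05% of 27025 genes. The ETS motif CCGGAAGT, the kind that GABP binds, occurred on either strand in 5 of 75 members (6.67%), in 9.75% of the other tested genes and in 4.31% of all. Uqcr11 held both. The 12 members with the NRF1 motif had a median ratio of -0.90 in Mist1+ against Mist1- and the 63 without it -1.05. Against Mist1+, the library labelled Gpx4 KO-Mist1+ had medians of -0.12 and -0.06 for them. The 12 included both ends of complex I in that comparison, Ndufa6 at 0.61 and Ndufa11 at -0.57. Matches are descriptions of letters, not of binding.

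In 9 members the NRF1 motif lay before the start. Stretches of 70 bases are shown for the 5 of these that lie outside the annotated gene, so that no transcribed base of that gene is shown. They are Atp5l (chr9:44920923-44920992, minus strand), Cox6a1 (chr5:115349081-115349150, minus strand), Ndufa11 (chr17:56717672-56717741, plus strand), Ndufa6 (chr15:82354335-82354404, minus strand) and Ndufaf4 (chr4:24897940-24898009, plus strand). The Atp5l stretch lies within Gm30934 (chr9:44920199-44921489), a gene annotated as antisense. The first match of the motif, in capitals, begins 240, 162, 60, 83 and 113 bases before the RefSeq start. In Cox6a1, Ndufa11 and Ndufaf4 the capitals are followed by gc, so GCATGCGC also occurs there, overlapping the marked match in the other orientation.

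Atp5l: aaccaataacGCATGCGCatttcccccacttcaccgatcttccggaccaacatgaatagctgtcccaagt
Cox6a1: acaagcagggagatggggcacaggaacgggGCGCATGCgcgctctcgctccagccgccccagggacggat
Ndufa11: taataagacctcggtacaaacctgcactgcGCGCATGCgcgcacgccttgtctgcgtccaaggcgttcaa
Ndufa6: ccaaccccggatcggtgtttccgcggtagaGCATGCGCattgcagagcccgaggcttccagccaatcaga
Ndufaf4: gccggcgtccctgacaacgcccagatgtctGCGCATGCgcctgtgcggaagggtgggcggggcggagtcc

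All 5 genes were highest in Mist1-: Atp5l had a log2 ratio of -1.08 in Mist1+ against Mist1-, Ndufa6 -0.95, Ndufa11 -0.91, Cox6a1 -0.88 and Ndufaf4, with 15.5, 10.4 and 7.13 FPKM, -0.53.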

How the data were processed

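RNA sequencing of 3 organoid libraries, 1 per group, was analysed from the authors' deposited gene table. Per the submitters' processing notes the tools were cutadapt 1.9.1, HISAT2 2.2.1 and HTSeq 0.6.1, with the build GRCm38.p5. The strand setting, the treatment of reads that fit several places and the read layout are not given in the sources used here. Per the file headers the table gives a count and an FPKM for each gene and library. The deposited FPKM were checked against the count divided by exonic length and column total, and deviated by at most 2.77% over genes with at least 50 counts.

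The filter kept the 13351 genes whose FPKM was 1 or more in any library, and a pseudocount of 1 was added to FPKM before log2 ratios. A 2-fold ratio was counted as a call, and no p-value was computed, since each group has 1 library. Intervals are exact 95% intervals (Poisson for a count, Clopper-Pearson for a share and for the split of a pair of counts) and cover counting error only; PCR copies are not independent molecules. For a gene of 1000 bases, 3 counts correspond to 0.201, 0.185 and 0.183 FPKM. Length trends were lowess fits (fraction 0.3) over all tested genes. The procedure was tested on simulated data with Poisson noise, planted changes well past the 2-fold line and a trend on exonic length. The coding length trend and changes near the 2-fold line were not simulated.

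The coordinates in the table differ from GRCm38 (starts equal for 2.85% of the 52073 identifiers shared with GENCODE M21), so coordinates, coding lengths (longest coding sequence) and shared 100-base windows are from M21, matched by identifier for all 113 genes. Windows were taken from the transcript with the longest coding sequence of each gene. Of the tested nuclear genes 87 of 91 had a coding length. The members and gene lists were chosen with earlier results of these data known. Genes were named by rule: mitochondrial genes, core subunits, isoform pairs, the most and least abundant and the extreme ratios of each complex, the largest ratios past 2-fold, and up to 4 per related list; other names were chosen after their values were seen. Alternatives changed the pseudocount, filter, scaling, length correction, 2-fold line and members. Calculations used scipy 1.17.1, statsmodels 0.14.6, pandas 2.3.3 and numpy 2.4.6 in Python 3.11.15, and figures matplotlib 3.10.9.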

Additional observations from a re-analysis of the deposited data

Results flagged for a closer look

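Table lines outside the gene set that are named as copies of its members held more counts than the 3 that a count of 0 allows. Of 15 processed copies with -ps in their names, 9 did so. Ndufa12-ps had 365, 141 and 441 counts in Mist1-, Mist1+ and the library labelled Gpx4 KO-Mist1+, and was 3.09-fold higher in the last than in Mist1+ (interval 2.55 to 3.76), while Ndufa12 had 2149, 910 and 676 counts. Cox5b-ps had 304, 133 and 132 counts, Ndufab1-ps 138, 68 and 55, and Atp5pb-ps 93, 54 and 42. The highest count in a library was 37 for Atp5k-ps2, 10 for Cox7c-ps1, 10 for Ndufs5-ps, 5 for Uqcrh-ps1 and 4 for Atp5l2-ps. Processed copies named otherwise were not counted here, and some held more. Gm12338, which shares windows with Cox7c, had 718, 250 and 286 counts, Gm10250 (Atp5h) 647, 263 and 252, and Gm10221 (Atp5l) 586, 222 and 219. Of 87 nuclear members with a value, 19 shared 10% to under 90% of windows and 1 shared 90% or more.

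All 7 copies of mitochondrial genes on chromosome 1 did so too. The highest count in a library was 1352 for Gm29216 (copy of mt-Co1), 871 for Gm28661 (mt-Co2), 574 for Gm10925 (mt-Atp6), 430 for Gm28437 (mt-Co3), 129 for Gm28439 (mt-Nd4), 46 for Gm28438 (mt-Nd3) and 17 for Gm10222 (mt-Nd4l). Gm29216 had 1352, 117 and 555 counts, an order unlike that of mt-Co1. Whether these counts come from the copies or from the genes was not tested.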

How the results depend on the processing

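Of 132 alternative values, 100 kept their sign and stayed within a set tolerance (1.5 times for a count, the members' median counting bounds for a median), 24 moved past it and 8 changed sign. Removing the coding length trend and leaving out genes that share at least 10% of windows were chosen after seeing the data. The cause of a change was not tested beyond what each setting does by construction. No paired analysis was possible because each group has 1 library and the groups share no replicate pairs. For the same reason no library was left out.

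Mist1+ against Mist1-: the nuclear median (-1.01) was -0.72 with FPKM rescaled to a common sum, -1.22 with median ratio scaling, and -0.68 and -0.49 with the exonic and coding length trend removed. The median of all genes was 0.40 and -0.02 under the 2 scalings (0.15 as deposited). The mitochondrial median (-0.14) was 0.19, -0.37, 0.25 and 0.17 under these 4 settings and 0.39 without genes that share windows (6 left). The 47 nuclear genes lower became 20 (common sum), 22 (exonic trend), 1 (coding trend) and 79 (1.5-fold line).

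The library labelled Gpx4 KO-Mist1+ against Mist1+: the nuclear median (-0.06) was 0.03 with median ratio scaling, 0.03 with the exonic and 0.05 with the coding trend removed. The 0 genes lower became 1 with a pseudocount of 0.1, 1 with the common sum and 2 with the 1.5-fold line; the 2 higher became 0 with a pseudocount of 5 and 1 with FPKM of at least 5.

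The same library against Mist1-: the nuclear median (-1.02) was -0.75 (common sum), -0.74 (exonic trend) and -0.50 (coding trend). The mitochondrial median (-0.34) was -0.05, 0.08 and -0.04 under these, and -0.02 without shared windows. The 47 lower became 31 (common sum), 72 (1.5-fold line) and 4 (coding trend), and the 0 higher became 2 (coding trend).

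In Mist1+ against Mist1- the number of nuclear genes below 0 was 84 of 91 with the common sum and 91 of 91 with median ratio scaling. Depth limits mt-Nd4l, mt-Atp8, Cox7a1 and the copy-named genes, each with at most 21 counts in a library.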

Other observations

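Genes that link mitochondria to low oxygen were compared beside the isoforms, since Cox4i2 and Ndufa4l2 are known from hypoxic cells. In the library labelled Gpx4 KO-Mist1+, 3 of 6 tested genes of this list were at least 2-fold higher than in Mist1+, beside 4.81% of all genes. At least 2-fold lower were 0, beside 2.74%, and the median log2 ratio was 0.90 (all genes -0.09). Bnip3, a mitophagy receptor, had 1568, 733 and 5606 counts in Mist1-, Mist1+ and that library (46.3, 20 and 151 FPKM; 7.55-fold higher than Mist1+, interval 6.99 to 8.17). Pdk1, which restrains pyruvate dehydrogenase, measured 17.6, 16.3 and 40.9 FPKM. Lonp1, a matrix protease that degrades oxidised subunits, measured 28, 25 and 51.2 FPKM. Bnip3l, a relative of Bnip3, measured 44.9, 40.2 and 70.5 FPKM (1.75-fold higher, 1.67 to 1.84). Hif1a of the same list was nearly level with Mist1+, at 8.66, 15.6 and 17.1 FPKM (1.09-fold higher, 1.02 to 1.17). Cox4i2 and Ndufa4l2 had at most 1 count in any library. In Mist1+ against Mist1-, 2 of the 6 were at least 2-fold lower, beside 5.73% of all genes, and 0 higher, beside 7.88%. They were Bnip3 and Higd1a, a complex IV-associated protein, Higd1a with 32.2, 12.5 and 15.2 FPKM. The leukocyte marker Cd68, also a lysosomal protein, had 82, 103 and 503 counts, while Ptprc and Lyz2 had at most 1 count and Cd3e 0; its part in these values was not tested.

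The copy-named genes among the members were close to the floor. Ndufb4c had 12, 12 and 21 counts, Ndufs6b 16, 7 and 13, and Cox6c2 15, 9 and 8, while Ndufa11b and Ndufb11b had 0 in each library.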
